A study of Homo sapiens with 6 samples.

Results

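The genes described here encode the enzymes of cholesterol synthesis and the proteins that switch this pathway on and off through the transcription factor SREBP2. They were chosen by name, as 28 genes of known role, and all 28 were found among the 12227 genes of the deposited table. RNA sequencing was performed on PC3, an established cell line from a human prostate cancer. In 3 libraries the cells carried short hairpin RNA (shRNA) against VprBP (labelled as VprBP knockdown), and in 3 libraries they carried control shRNA (genotype labelled WT). The DCAF1 gene encodes VprBP, which brings substrates to the CRL4 ubiquitin ligase and for which kinase activity towards a histone has also been reported. All cells were grown in the same medium with 10% serum, and neither the hairpin sequences nor what a replicate number stands for (hairpin, culture or repeat preparation) is given in the sources used here. The p-values therefore measure the spread between these libraries, which may be technical.

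Cholesterol is built from acetyl-CoA in a long series of reactions. The mevalonate arm makes isoprenoid units, squalene synthase commits them to sterols, and enzymes of the endoplasmic reticulum close and trim the sterol rings. SREBP2, encoded by SREBF2, is made as a membrane-bound precursor and travels with its escort SCAP to the Golgi, where a pair of proteases release the active factor. When sterols are plentiful, INSIG proteins hold SCAP and the precursor in the endoplasmic reticulum. Released SREBP2 binds sterol response elements, often beside sites of the factors NF-Y and Sp1, and raises the genes of the whole pathway, including SREBF2 and INSIG1 themselves.

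Depletion of the VprBP transcript was checked first. DCAF1 was 38.5, 41.1 and 40.2 in the knockdown libraries and 79.4, 78.5 and 78.7 in the control libraries, in the units of the deposited values, which are a signal scaled per library. The groups did not overlap, and 50.6% of the control level remained (log2 fold change -0.97, SE 0.05, limma adjusted p = 3.56e-11). An exact permutation test, two-sided, gave p = 0.1, the smallest that 3 libraries against 3 allow. The libraries held 23029287 to 39633762 estimated reads in the knockdown group and 22981825 to 32292780 in the control group. The third knockdown library lay farthest from its group: estimated reads over all genes differed from the other knockdown libraries by 6.26 and 6.69 in chi-square per degree of freedom, and by 3.39 to 3.85 between the remaining pairs of a group. All 4 epithelial markers examined were listed, with summed values of 2398 to 2446 in knockdown libraries and 1892 to 1918 in control libraries. KRT8, KRT18 and EPCAM were called higher, while KRT19, the most abundant, stood at 829 ± 27.5 in knockdown cells and 825 ± 26.0 in control cells (SD, n = 3 each). Of the 4 fibroblast, 4 leucocyte and 4 endothelial markers, COL1A1, CD68 and PECAM1 alone were listed, the others not being analysed here. COL1A1 and CD68 were not called (limma adjusted p = 0.951 for COL1A1 and limma adjusted p = 0.938 for CD68). COL1A1 ranged over 20.6 to 28.7 in knockdown and 23.6 to 25.4 in control libraries, and CD68 over 25.6 to 26.9 in knockdown and 25.6 to 26.8 in control libraries. PECAM1 fell to 23.3 ± 0.695 in knockdown cells, against 54.2 ± 1.14 in control cells (SD, n = 3 each; limma adjusted p = 1.59e-11). The part of these marker levels in the results was not tested. In bulk RNA, fewer cells that express a gene and less RNA per cell cannot be told apart.

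Most enzymes of cholesterol synthesis were higher in VprBP knockdown cells, whereas the transcripts for SREBP2, its escort and its first protease were lower. Of the 28 genes, 19 were called higher and 4 lower at a limma adjusted p under 0.05, and 5 were not called. Calls were common in this comparison: over all 12227 genes, 33% were called higher and 27.8% lower, or 60.9% in either direction. The median log2 fold change was 0.43 over the 28 genes and 0.02 over all listed genes. A rise of at least 1.5-fold was called for 8 of the 28 genes, against 720 of all 12227 genes (5.89%). A fall of that size was called for 0 of the 28 genes, against 789 of all 12227 genes, so it was uncommon in general. For 21 of the 28 genes every knockdown library lay above every control library, as it did for 35.1% of all genes. For 4 of the 28 every knockdown library lay below every control library, as for 29.6% of all genes. By role, 16 of 20 enzyme genes rose and 1 fell, while 2 of 7 sensing and processing genes rose (28.6%) and 3 fell (42.9%). Against a minimum change of 1.2-fold (limma's treat), none of the 4 lower calls passed, nor did 5 of the higher ones (MVD, FDFT1, HSD17B7, DHCR7 and INSIG2). Since the genes were chosen with earlier results of these data known, these counts carry no test of the list.

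**Figure D1:**
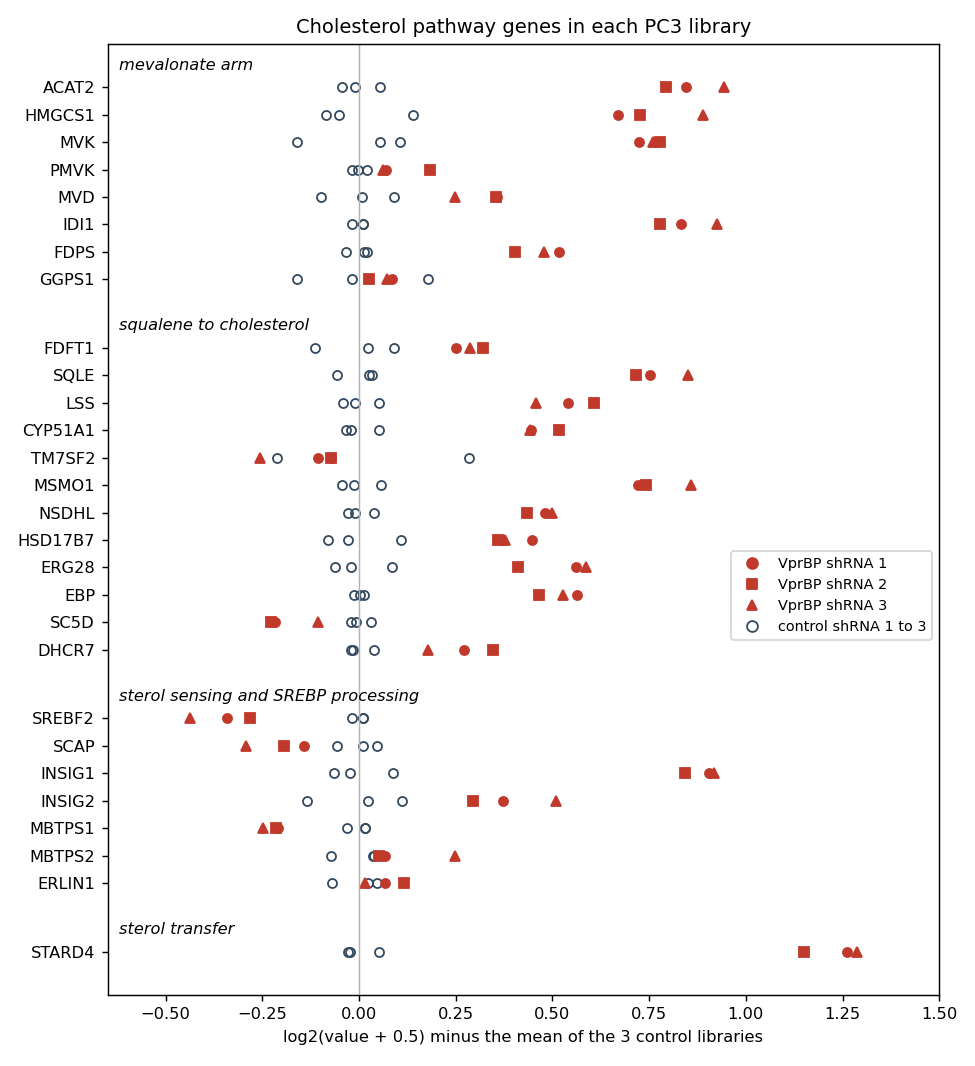
Log2(value + 0.5) of each of the 28 genes in each library, minus the mean of the 3 control libraries of that gene (x axis). Filled red symbols are the knockdown libraries and open circles the control libraries, with genes ordered by role. The red symbols lie to the right of the open circles for 21 genes and to the left for 4 genes.

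**Figure D2:**
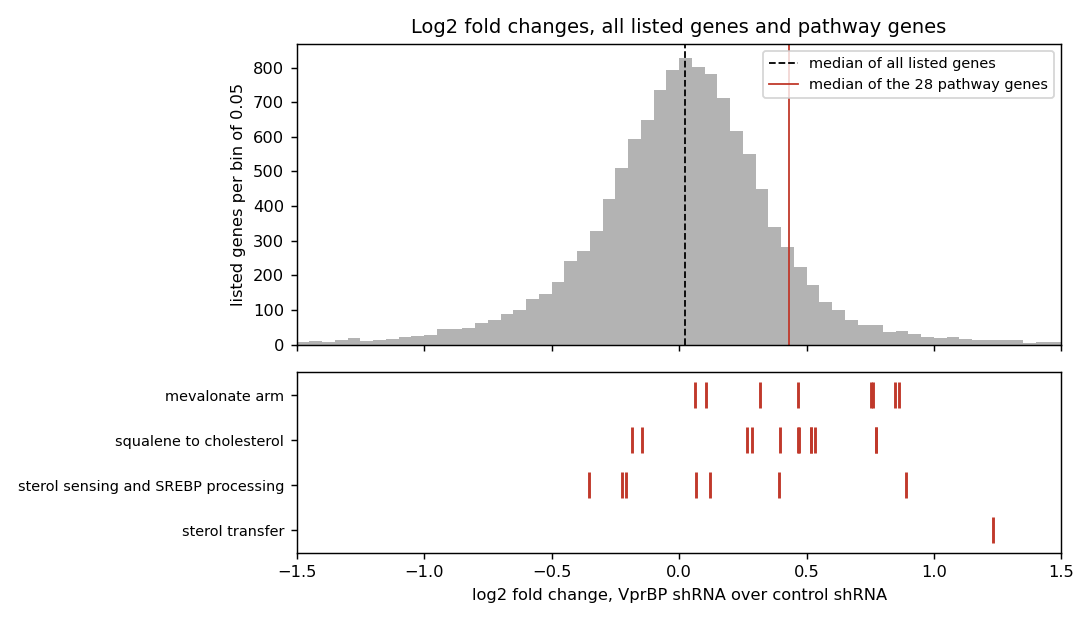
Histogram of the log2 fold change, knockdown over control, of the listed genes within 1.5 of 0 (upper panel), with the 28 genes as red ticks by role (lower panel). The dashed line is the median of all listed genes, 0.02, and the red line the median of the 28 genes, 0.43.

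Among the regulators, the transcription factor gene itself fell. SREBF2 was 142, 148 and 132 in the knockdown libraries and 181, 177 and 181 in the control libraries. No knockdown library reached the control libraries, which made SREBF2 1.28-fold lower (log2 fold change -0.35, SE 0.04, limma adjusted p = 1.66e-06). SREBF2 (ENSG00000198911.13, chr22:41833105-41907306, plus strand, hg38) had the largest fall of the 28 genes. SCAP, the sterol-sensing escort of SREBP2, was 87.8, 84.8 and 79.1 in the knockdown libraries and 97.7, 93.3 and 100.3 in the control libraries, 1.16-fold lower (log2 fold change -0.21, SE 0.05, limma adjusted p = 0.00114). MBTPS1, which encodes the site-1 protease that makes the first cut, was 152, 152 and 148 in the knockdown libraries and 178, 178 and 172 in the control libraries. It was 1.17-fold lower (log2 fold change -0.22, SE 0.04, limma adjusted p = 4.39e-05). For SCAP and MBTPS1, too, the groups did not overlap.

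MBTPS2, which encodes the protease of the next cut, did not follow MBTPS1. Its values were 54.6, 53.9 and 61.9 in the knockdown libraries and 53.4, 53.4 and 49.4 in the control libraries. The gene was not called (log2 fold change 0.12, SE 0.06, limma adjusted p = 0.0813), although every knockdown library lay above every control library. Without the second knockdown library it passed the threshold, with a limma adjusted p of 0.0469. The log2 ratio of MBTPS1 to MBTPS2 averaged 1.40 ± 0.129 in knockdown cells and 1.75 ± 0.0358 in control cells (SD, n = 3 each), a difference of -0.35. Those ratios did not overlap between groups (exact permutation test, two-sided, p = 0.1, the smallest possible). As MBTPS1 was lower and MBTPS2 higher in every knockdown library, the ratios had to separate, so this test adds no support. ERLIN1, an endoplasmic reticulum protein that takes part in sterol control, overlapped between groups at 60.2 ± 2.12 in knockdown cells and 57.5 ± 2.47 in control cells (SD, n = 3 each; limma adjusted p = 0.259).

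The INSIG genes, whose products retain SREBP2 in the endoplasmic reticulum, were both higher. INSIG1, itself a target of SREBP2, was 37.4, 35.8 and 37.7 in the knockdown libraries and 18.8, 21.0 and 19.4 in the control libraries. No libraries overlapped, and the rise was 1.87-fold (log2 fold change 0.89, SE 0.06, limma adjusted p = 5.38e-09). INSIG1 (ENSG00000186480.13) spans chr7:155297776-155310235 on the plus strand. INSIG2, the relative that SREBP2 does not induce, was 33.0, 31.3 and 36.3 in the knockdown libraries and 23.1, 27.4 and 25.8 in the control libraries, 1.32-fold higher (log2 fold change 0.39, SE 0.07, limma adjusted p = 0.000244). By value the rise of INSIG1 was the larger: the log2 ratio of INSIG1 to INSIG2 was 0.14 ± 0.0771 in knockdown cells and -0.35 ± 0.0608 in control cells (SD, n = 3 each), a difference of 0.50. Here also the ratios did not overlap and the exact permutation test, two-sided, gave its smallest possible p = 0.1. The 2 ratios were the only pairs of genes compared in this way.

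Mevalonate arm genes had the larger median log2 fold change of the enzyme groups, 0.61. Of these 8 genes, 6 were called higher and none lower, while 33% of all genes were called higher and 27.8% lower. ACAT2, the cytosolic thiolase that joins acetyl-CoA units at the entry of the pathway, was 51.4, 49.5 and 55.0 in the knockdown libraries and 28.2, 29.5 and 27.5 in the control libraries. That 1.83-fold rise was the largest among the enzymes (log2 fold change 0.86, SE 0.06, limma adjusted p = 2.22e-09). HMGCS1, which makes HMG-CoA, was 54.3, 56.5 and 63.3 in the knockdown libraries and 37.5, 32.0 and 32.7 in the control libraries, 1.70-fold higher (log2 fold change 0.76, SE 0.07, limma adjusted p = 8.18e-08). MVK, the mevalonate kinase gene, was 29.7, 30.8 and 30.5 in the knockdown libraries and 19.2, 15.9 and 18.5 in the control libraries, also 1.70-fold higher. IDI1, which isomerises the isoprenoid unit, was 29.03, 27.9 and 31.0 in the knockdown libraries and 15.9, 16.2 and 16.2 in the control libraries, 1.82-fold higher (log2 fold change 0.85, SE 0.07, limma adjusted p = 1.98e-08). In each of these 4 genes the lowest knockdown library stood above the highest control library by a wide gap.

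Other steps of the same arm moved less. FDPS, which builds farnesyl diphosphate, was 177, 164 and 172 in the knockdown libraries and 125, 126 and 121 in the control libraries, 1.38-fold higher (limma adjusted p = 4.20e-08). MVD, the mevalonate diphosphate decarboxylase gene, rose 1.25-fold, to 37.3 ± 1.61 in knockdown cells, against 29.9 ± 1.96 in control cells (SD, n = 3 each; limma adjusted p = 0.000363). PMVK, the kinase between MVK and MVD, was 36.8, 39.8 and 36.6 in the knockdown libraries and 34.6, 35.0 and 35.5 in the control libraries. Its groups did not overlap, yet it was not called (log2 fold change 0.11, SE 0.06, limma adjusted p = 0.115). GGPS1 makes geranylgeranyl diphosphate, which serves protein prenylation and not sterols. It was 20.6, 19.7 and 20.4 in the knockdown libraries and 19.1, 22.0 and 17.3 in the control libraries, so that the control libraries spanned all 3 knockdown values (log2 fold change 0.06, SE 0.08, limma adjusted p = 0.543).

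From squalene synthesis to cholesterol, 10 of 12 genes were called higher (83.3%) and 1 lower (8.33%), against 33% and 27.8% of all genes. Their median log2 fold change was 0.47. SQLE, which encodes squalene epoxidase, a rate-controlling oxygen-dependent step, was 173, 169 and 185 in the knockdown libraries and 98.4, 104 and 105 in the control libraries. The rise was 1.71-fold with wide separation between groups (log2 fold change 0.77, SE 0.04, limma adjusted p = 2.37e-10). MSMO1, the sterol methyl oxidase gene, was 65.1, 65.9 and 71.6 in the knockdown libraries and 38.1, 40.8 and 38.9 in the control libraries, 1.72-fold higher (log2 fold change 0.77, SE 0.05, limma adjusted p = 2.88e-09). FDFT1, squalene synthase, stands before SQLE and rose 1.22-fold, to 58.2 ± 1.42 in knockdown cells, against 47.7 ± 3.42 in control cells (SD, n = 3 each; limma adjusted p = 0.000314). LSS, which closes the rings to lanosterol, was 75.5, 79.2 and 71.2 in the knockdown libraries and 51.4, 50.3 and 53.7 in the control libraries, 1.45-fold higher. CYP51A1, the lanosterol demethylase gene, was 104, 109 and 104 in the knockdown libraries and 79.0, 75.05 and 74.4 in the control libraries, 1.39-fold higher. The limma adjusted p was 1.51e-07 for LSS and 1.14e-07 for CYP51A1.

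Other parts of the sterol demethylation complex, to which MSMO1 belongs, rose by 1.32-fold to 1.44-fold. NSDHL, its dehydrogenase, was 40.4, 39.1 and 40.9 in the knockdown libraries and 28.6, 28.2 and 29.6 in the control libraries, 1.39-fold higher (limma adjusted p = 1.85e-06). HSD17B7, the ketoreductase, rose 1.32-fold, to 22.0 ± 0.740 in knockdown cells, against 16.7 ± 1.17 in control cells (SD, n = 3 each; limma adjusted p = 0.000241). ERG28, known from yeast as the scaffold that tethers this complex, was 68.3, 61.5 and 69.6 in the knockdown libraries and 45.5, 49.0 and 44.2 in the control libraries, 1.44-fold higher (limma adjusted p = 8.64e-07). The isomerase gene EBP, which acts after it, was 117, 109 and 114 in the knockdown libraries and 78.0, 79.5 and 78.8 in the control libraries. EBP rose 1.44-fold (limma adjusted p = 1.84e-08). In NSDHL, HSD17B7, ERG28 and EBP alike, no knockdown library reached down to the control libraries.

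The remaining reductase genes and the desaturase gene were mixed. SC5D, which encodes the sterol desaturase of the step after EBP, was the only enzyme gene called lower. Its values were 109, 108 and 118 in the knockdown libraries and 126, 129.7 and 125 in the control libraries, a 1.14-fold fall without overlap (log2 fold change -0.18, SE 0.04, limma adjusted p = 0.00128). DHCR7, the reductase that completes cholesterol in this branch, was 190.2, 200.4 and 178 in the knockdown libraries and 162, 155 and 156 in the control libraries, 1.203-fold higher (log2 fold change 0.26, SE 0.04, limma adjusted p = 5.19e-05). TM7SF2, a sterol reductase gene, was 13.8, 14.1 and 12.4 in the knockdown libraries and 12.8, 18.3 and 14.1 in the control libraries. The TM7SF2 groups overlapped (log2 fold change -0.14, SE 0.11, limma adjusted p = 0.268).

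STARD4, which carries cholesterol between membranes and is induced by SREBP2, had the largest change of the 28 genes. It was 23.7, 21.9 and 24.2 in the knockdown libraries and 9.40, 9.45 and 9.97 in the control libraries. The lowest knockdown value lay far above the highest control value, and the rise was 2.42-fold (log2 fold change 1.23, SE 0.08, limma adjusted p = 1.28e-09). By log2 fold change it stood at place 148 from the top of the 12227 genes, followed among the 28 by INSIG1 at place 288, ACAT2 at 311 and IDI1 at 321. STARD4 (ENSG00000164211.13) spans chr5:111496033-111512590 on the minus strand.

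**Figure D3:**
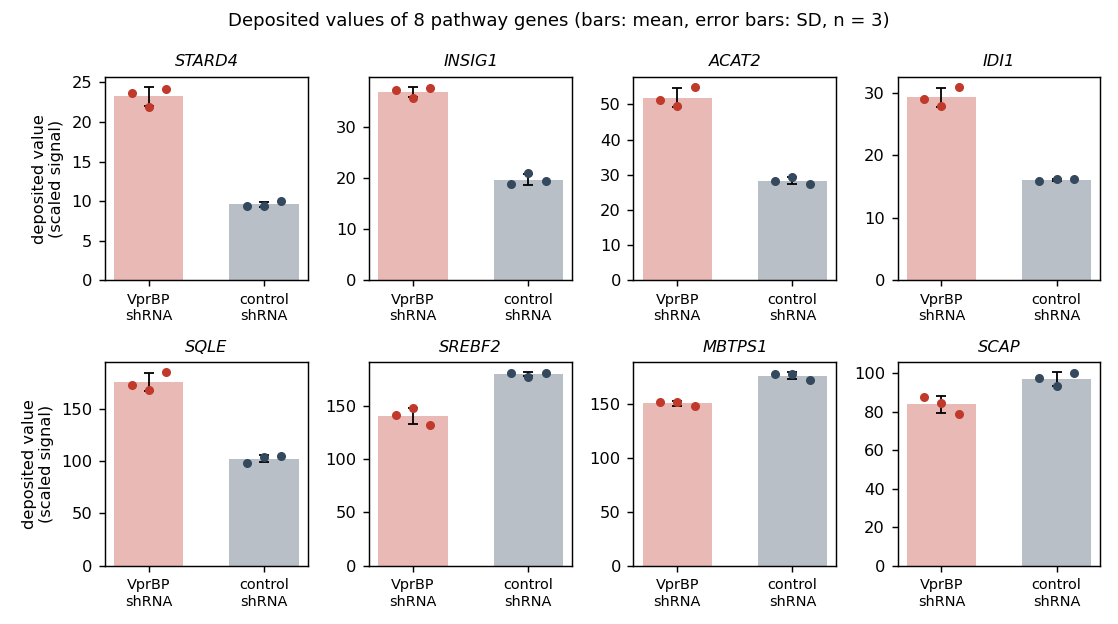
Deposited values (scaled signal, linear axes from 0) of 8 of the genes, with knockdown libraries on the left and control libraries on the right of each panel. Bars are means, error bars SD (n = 3) and points single libraries, and the groups do not overlap in any panel: STARD4, INSIG1, ACAT2, IDI1 and SQLE are higher and SREBF2, MBTPS1 and SCAP lower in the knockdown libraries.

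The median change was of similar size in the 3 knockdown libraries. Relative to the mean of the control libraries, the median log2 difference over the 28 genes was 0.45, 0.38 and 0.45 in knockdown libraries 1 to 3, and lay between -0.01 and 0.01 in the control libraries. Over the 19 genes called higher it was 0.56, 0.52 and 0.53, and over the 4 genes called lower -0.21, -0.22 and -0.27. Both sets were chosen by their calls in these same libraries, so likeness among the knockdown libraries is partly built in there. The third knockdown library, which stood farthest from its group, gave the highest knockdown value for 10 of these 19 genes (52.6%), compared with 40.5% of all listed genes. Without it, 19 genes were still called higher and 4 lower. The second knockdown library gave the lowest knockdown value for 11 of the 19 genes (57.9%), compared with 33.1% of all listed genes. Without that second library, 20 genes were called higher and 4 lower. For 5 genes the annotation (GENCODE 29, hg38) places exons of a listed gene on the opposite strand, from which reads cannot be told apart without a stated strand setting. ACAT2 shares 397 exonic bases with TCP1, which was called lower (log2 fold change -0.17). MVK shares 306 with MMAB, called higher (0.40). FDPS shares 693 with RUSC1-AS1, called higher (0.59). ERG28 shares 35 with TTLL5, called higher (0.22). GGPS1 shares 138 with ARID4B, which was not called. Some of the 28 genes also share exonic bases with genes not used here. For ACAT2 these overlaps, of 1141 and 1458 of its 4299 exonic bases, are larger than the overlap with TCP1. FDPS, CYP51A1 and HSD17B7 have 8, 3 and 2 pseudogenes named after them in that annotation, so their values are uncertain where reads were split between copies. The part of such reads in these results was not tested.

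Promoter sequence was examined because so many of these genes moved together. RefSeq (GRCh38.p14) windows of 250 bases before and 50 after an annotated start were held for 24 of the 28 genes, 6 of them with more than 1 start. A gene was counted when any of its windows held the motif on either strand. The CCAAT box, the site of NF-Y, searched as CCAAT, was present in 14 of 16 genes called higher (87.5%), 2 of 4 called lower and 2 of 4 not called. It was present in 43.6% of the 9422 listed genes with a window. Of the 16 genes called higher, 12 held 2 or more CCAAT boxes in 1 window, against 0 of the 4 called lower, 0 of the 4 not called and 16.7% of listed genes. This second count was chosen after the first was seen. MVK and NSDHL held 5 boxes in a window, and MSMO1 held 4. The GC box of Sp1, searched as GGGCGG, was present in 15 of 16 genes called higher, 3 of 4 called lower and 78.6% of listed genes. An E-box (CACGTG) was found in 2 of 16 genes called higher, 2 of 4 called lower and 12.6% of listed genes. Window by window, over all genes of the table, 34.6% held CCAAT, 45.0% GGGCGG and 7.26% CACGTG.

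The upstream stretches of 4 genes are shown for this contrast: STARD4, with the largest rise, INSIG1, with the largest rise among the regulators, NSDHL, which with MVK has the most boxes, and MBTPS1, which fell and has no box. Of the 5 boxes of NSDHL, 4 lie in the stretch shown and the other lies in the part left out. NSDHL and MBTPS1 were picked after their motifs were seen. Among the genes called lower, SREBF2, with the largest fall, and SC5D each held 1 CCAAT box in a window, and SCAP held none. Among those called higher, CYP51A1 and INSIG2 held none. Bases of annotated exons are left out. Capitals mark CCAAT, its reverse complement ATTGG and, in INSIG1, the short sterol response element described next; at the CCAATTGG of NSDHL the boxes of both strands overlap, and both are counted. The stretches are chr5:111512591-111512785 (minus strand) for STARD4, chr7:155297628-155297775 (plus) for INSIG1, chrX:152830813-152830966 (plus) for NSDHL and chr16:84116943-84117050 (minus) for MBTPS1.
STARD4: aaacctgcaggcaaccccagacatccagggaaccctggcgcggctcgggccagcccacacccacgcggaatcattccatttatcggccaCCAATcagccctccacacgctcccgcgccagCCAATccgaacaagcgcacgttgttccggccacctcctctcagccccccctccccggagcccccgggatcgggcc
INSIG1: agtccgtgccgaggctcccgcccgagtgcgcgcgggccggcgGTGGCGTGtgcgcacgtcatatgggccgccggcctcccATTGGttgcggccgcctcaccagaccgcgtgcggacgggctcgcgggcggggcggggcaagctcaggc
NSDHL: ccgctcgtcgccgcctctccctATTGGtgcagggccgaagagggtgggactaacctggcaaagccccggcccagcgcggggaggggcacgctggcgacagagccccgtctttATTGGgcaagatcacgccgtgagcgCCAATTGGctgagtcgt
MBTPS1: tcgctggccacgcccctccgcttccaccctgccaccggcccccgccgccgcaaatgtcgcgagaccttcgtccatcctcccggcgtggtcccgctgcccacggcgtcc

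Sterol response elements were rare under the letters used. The longer form TCACNCCAC was found in 1 of the 24 genes with a window, SREBF2, and in 1.39% of listed genes. The shorter form CACNCCAC, which every match to the longer form contains, was found in 4 of the 24, IDI1 and INSIG1 among the genes called higher and SREBF2 and SC5D among those called lower, and in 7.65% of listed genes. Over all windows of the table the shares were 1.13% for the longer and 5.87% for the shorter form. These letters cover only some known elements. A match does not show binding, and the lack of a match does not show that binding is absent. The 4 sites are shown because they include genes that changed in opposite directions, with the match in capitals: in SREBF2 (chr22:41832962-41832990, plus strand) it begins 133 bases before the start, in INSIG1 (chr7:155297660-155297687, plus) 208, in IDI1 (chr10:1048984-1049011, minus) 115 and in SC5D (chr11:121292774-121292801, plus) 68. IDI1 and SC5D have several annotated starts, and these distances are from 1 of them. From the other SC5D start the same site begins at position 14 after it, and the IDI1 and SC5D sites both lie inside the deposited gene spans.
SREBF2: tgacgcgccaTCACCCCACgcaccgcttc
INSIG1: cgggccggcgGTGGCGTGtgcgcacgtc
IDI1: gccgggcgatGTGGCGTGgactggcgct
SC5D: ttgcagagcaGTGGCGTGcggagcggcg
In INSIG1, IDI1 and SC5D the capitals are the same 8 letters, the reverse complement of the shorter form, whereas SREBF2 has the longer form on the coding strand. The first 2 of these genes rose and the others fell.

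Genes around the pathway, taken by role, are described next. Over all genes 33% were called higher and 27.8% lower, so calls in both directions are common to most lists here. Of 13 genes for ubiquitination at the endoplasmic reticulum, which destroys sterol pathway proteins when sterols are plentiful, 7 rose (53.8%) and 3 fell (23.1%), and their median log2 fold change was 0.19. UFD1, UBE2J2 and the ligase gene RNF145 rose 1.30-fold, 1.23-fold and 1.23-fold. The ligase gene MARCHF6, whose product targets squalene epoxidase, was 1.199-fold lower, at 342 ± 11.5 in knockdown cells and 410.1 ± 5.47 in control cells (SD, n = 3 each; limma adjusted p = 4.31e-06). ERLIN2 and UBE2G2 were 1.14-fold and 1.11-fold lower. Of 15 further genes for SREBP transport, processing and partner factors, 6 rose (40.0%) and 3 fell (20%), against 33% and 27.8% of all genes. Their median log2 fold change of 0.04 lay between 0.0124 and 0.0583 under the alternative settings. PAQR3, which anchors SCAP and SREBP at the Golgi, was 26.4, 30.9 and 30.9 in the knockdown libraries and 19.0, 18.0 and 19.1 in the control libraries, 1.57-fold higher (log2 fold change 0.64, SE 0.07, limma adjusted p = 1.62e-06). SPRING1, needed for site-1 protease activity, rose 1.35-fold, to 99.4 ± 1.71 in knockdown cells, against 73.6 ± 1.41 in control cells (SD, n = 3 each). NFYB, a subunit of NF-Y, rose 1.24-fold, while SP1 fell to 137 ± 5.82 in knockdown cells, against 174 ± 0.501 in control cells (SD, n = 3 each). Of the other NF-Y subunits, NFYC was called 1.16-fold higher, and NFYA was not called (log2 fold change -0.06, limma adjusted p = 0.239). The coat genes SEC24A and SEC23A, for vesicles that leave the endoplasmic reticulum, were 1.29-fold and 1.14-fold lower.

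In the branches that leave the mevalonate arm, for dolichol, ubiquinone and prenylation, 8 of 18 genes rose (44.4%) and 4 fell (22.2%), against 33% and 27.8% of all genes, around a median of 0.10 on the log2 scale. DOLK, ZMPSTE24 and PDSS1 rose 1.37-fold, 1.35-fold and 1.32-fold. PDSS2, whose product pairs with that of PDSS1 to build the ubiquinone tail, was 1.33-fold lower, and SRD5A3 and NUS1 of dolichol synthesis were 1.18-fold and 1.17-fold lower. The SRD5A3 call (limma adjusted p = 0.0154) was lost without the first knockdown library (limma adjusted p = 0.0578) or the second control library (limma adjusted p = 0.0802). Of 19 listed genes for sterol transport and storage, 6 rose and 6 fell (31.6% each), which is near the all-gene shares, around a median of -0.05 on the log2 scale. GRAMD1B, which moves cholesterol from the plasma membrane to the endoplasmic reticulum, was 65.6, 67.8 and 61.6 in the knockdown libraries and 108, 109 and 108 in the control libraries. Its 1.67-fold fall (log2 fold change -0.74, SE 0.04, limma adjusted p = 6.26e-10) exceeded that of any of the 28 genes, and its relative GRAMD1A was 1.33-fold lower. OSBP was 1.15-fold lower, and TMEM97, STARD3NL and the esterifying enzyme gene SOAT1 rose 1.28-fold, 1.27-fold and 1.22-fold. Of 10 genes for acetyl-CoA and reducing power, 3 rose (30.0%) and 4 fell (40.0%), around a median of -0.11 on the log2 scale. Here, too, the all-gene shares were 33% and 27.8%, and the list holds only 10 genes. ACLY, which makes cytosolic acetyl-CoA from citrate, rose 1.18-fold, and CYB5B and CYB5R3 rose 1.45-fold and 1.16-fold. ACSS2, which makes acetyl-CoA from acetate, was 1.26-fold lower, ME1 was 1.25-fold lower and CYB5A 1.18-fold lower. Against a minimum change of 1.2-fold, the calls that held among the genes named from these lists were UFD1, PAQR3, SPRING1, ZMPSTE24 and CYB5B, all higher, and GRAMD1B, lower.

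**Figure D4:**
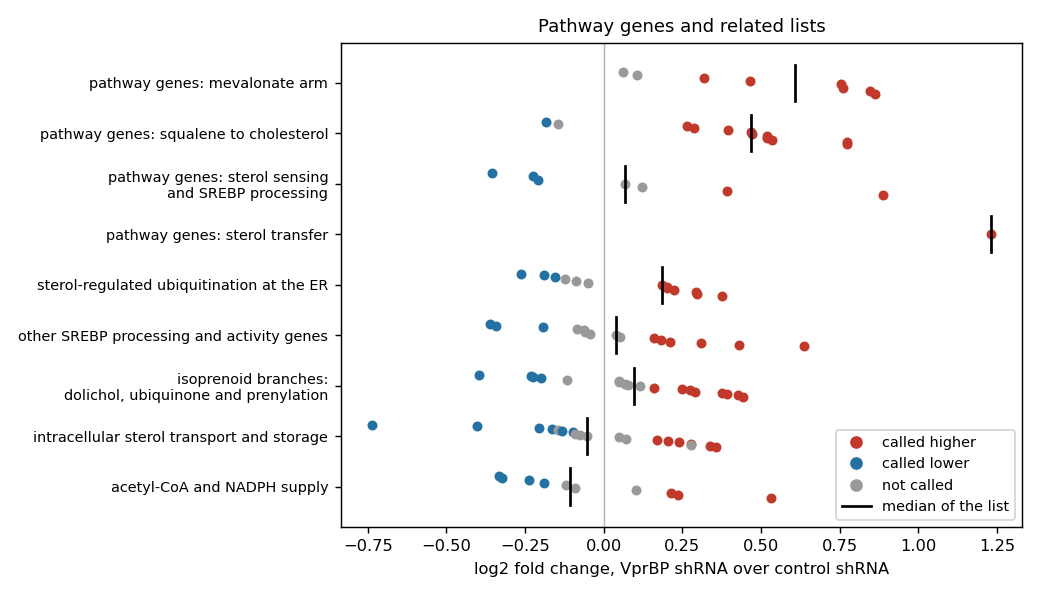
Log2 fold change, knockdown over control, of each gene in the 4 role groups of the pathway and in 5 related lists (1 point a gene). Points are coloured by call at a limma adjusted p under 0.05, and black bars are medians, 0.61 for the mevalonate arm, 0.47 for squalene to cholesterol and -0.05 for sterol transport and storage.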

How the data were processed

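Per the labels' protocols, total RNA of 3 VprBP knockdown and 3 control PC3 samples was made into libraries with a SMARTer kit, and per the submitters' processing notes Partek and build hg38 were used. The sources used here do not give the aligner, the quantifier or the scaling. Values the authors deposited, although named raw counts, are a scaled signal: none of the columns holds whole numbers, and the 75th percentile over genes lay between 78.994 and 79.015 in all 6 libraries. Reads were estimated by dividing a library's values by the spacing of its low values (0.0254 to 0.0439), at which 49.1% to 63.1% of values came out whole within 0.02 reads, too few for a count test. Every listed gene reached 150 such reads in some library, and genes below that were not analysed here. Because reads were scaled per library, only shifts relative to the bulk of genes can be seen.

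The test was limma (version 3.58.1, under R 4.3.3) with a trended prior variance, fitted to log2(value + 0.5) of all 12227 genes in the 6 libraries. Two-sided p-values were adjusted by Benjamini-Hochberg, and calls were made where this adjusted value was under 0.05. This scale understates changes of low genes. Each fold divides the groups' mean deposited signal, ± is SD, and SE is that of the log2 fold change. The script was tested on simulated data. The members and lists were chosen with earlier results of these data known. Named genes are DCAF1, all members, up to 3 called genes per direction in each related list, and the most abundant gene of each marker list. Other epithelial markers, genes on opposite strands, NFYA and NFYC were named after their values were seen. Gene ends are the deposited ends minus 1. Alternatives were other pseudocounts (0.1 and 2), median-ratio, equal-sum and trimmed-mean scaling, a filter on the mean value (5 or more), limma-voom on estimated reads, a minimum fold of 1.2 (treat), a replicate block, and each library left out.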

Additional observations from a re-analysis of the deposited data

How the results depend on the processing

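Under the 15 alternatives, 18 of the 28 genes kept their side of the threshold throughout. The median log2 fold change of the 28 genes lay between 0.40 and 0.45, and the median of all genes between -0.003 and 0.027. With the replicate block 19 genes were called higher and 4 lower, as without it. The correlations of same-numbered deviations were 0.03, -0.18 and -0.17, and those of differently numbered ones lay between -0.10 and 0.22. Deviations from the mean of 3 libraries are tied to each other, so these values cannot settle whether the numbers pair the libraries. Leaving out 1 library gave 19 to 20 genes called higher and 4 lower, with medians of 0.58 to 0.64 for the mevalonate arm, 0.0316 to 0.0848 for sterol sensing and 0.14 to 0.20 for ubiquitination.

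The minimum fold of 1.2 mattered most, by its own construction. Over all genes it left 1144 higher and 1187 lower, against 4037 and 3404 without it. Of the 28, 14 genes stayed higher and 0 lower, with SREBF2 at an adjusted p of 0.0994. The called-lower count was then 0 for squalene to cholesterol, 0 for sterol sensing (1 higher), 0 for ubiquitination (1 higher), 0 for SREBP processing (2 higher), 0 for isoprenoid branches (1 higher), 1 for sterol transport (0 higher) and 0 for acetyl-CoA and NADPH supply (1 higher). Median-ratio, equal-sum and trimmed-mean scaling gave medians of 0.444, 0.447 and 0.442 for squalene to cholesterol and 0.161, 0.163 and 0.159 for ubiquitination, where 5 genes were called lower under each of them and under voom. Trimmed-mean scaling gave 0.039 for sterol sensing. GGPS1, not called, changed sign without the third control library (-0.02).

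The SE was 0.11 for TM7SF2, against 0.04 for SQLE, and the cause was not tested. Calls at every size of change rest on the spread of 3 libraries a group. Some changes above 1.2-fold, such as that of INSIG2 (1.32-fold), were not called against the minimum fold of 1.2.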
